A study of Mus musculus with 8 samples.

Results

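The 9 genes described here, Csf1r, Itgam, Aif1, Cx3cr1, P2ry12, Tmem119, Trem2, C1qa and C1qb, are widely used markers of microglia, the resident macrophages of the brain. They were taken by name and found on the arrays through the RefSeq accession of each probe. All 9 were measured, by 15 of the 33300 probes tested, among 15283 named genes tested in all. Total RNA was taken from a frozen cross section of the brain of 4 homozygous Pus1 mutants and 4 wild-type mice. Pus1 encodes a pseudouridine synthase, an enzyme that modifies uridines of tRNAs and other RNAs, and the sources used here do not give the kind of mutation. The animals, on a C57BL/6J background reached by 5 generations of backcrossing, were aged 14 to 16 weeks. The 4 arrays, which shared 1 slide, were hybridised in 2 colours. A mutant was set against a wild-type animal of equal sex and number on each, and these are called pairs 1 to 4. Females made up pairs 1 and 2, males pairs 3 and 4, and the mutant was labelled with Cy5 in pairs 1 and 3 and with Cy3 in pairs 2 and 4. Pus1 itself, at its 1 probe, had log2 levels of 7.09, 7.16, 6.75 and 7.03 in mutant mice 1 to 4, against 9.16, 10.10, 9.36 and 9.78 in wild-type mice 1 to 4. It fell by 2.59 on the log2 scale (adjusted p = 0.0364 in limma), in the direction of the labels, and 3 of the 4 mutant values were well above background.

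Microglia depend on CSF1R, a receptor tyrosine kinase activated by CSF1 and IL-34, for their survival, and they watch their surroundings through receptors such as P2RY12 for nucleotides and CX3CR1 for the neuronal chemokine fractalkine. TREM2 binds lipids and signals through the adaptor TYROBP, and ITGAM pairs with ITGB2 to form complement receptor 3. C1QA and C1QB are 2 of the chains of C1q, which starts the classical complement pathway, while AIF1 (IBA1), a calcium-binding protein of the actin cytoskeleton, and TMEM119, a membrane protein, serve mainly as markers. In RNA from a piece of brain, fewer cells of a type and less RNA per cell cannot be told apart.

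Many microglial genes are known targets of the transcription factor PU.1 (encoded by Spi1), whose binding sites have GAGGAA as a core. The stretch of 250 bases before the gene start (RefSeq, GRCm38.p6) was read for 6 of the 9 genes. Those 6 were Aif1, C1qb, Cx3cr1, Itgam, P2ry12 and Trem2, and GAGGAA was searched on both strands. Csf1r, Tmem119 and C1qa were left out, so the count of matches does not cover them. The core was present in 4 of the 6, and in 23.3% of 32851 such stretches over all genes. The 4 are shown to let the letters be read, 5′ to 3′ on the gene's strand, with GAGGAA or its reverse complement TTCCTC in capitals.
Aif1: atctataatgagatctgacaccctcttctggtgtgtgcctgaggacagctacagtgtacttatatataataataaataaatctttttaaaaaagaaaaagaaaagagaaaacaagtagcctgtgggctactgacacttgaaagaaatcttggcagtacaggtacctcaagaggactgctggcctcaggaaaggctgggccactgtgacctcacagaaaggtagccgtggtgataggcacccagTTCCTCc
C1qb: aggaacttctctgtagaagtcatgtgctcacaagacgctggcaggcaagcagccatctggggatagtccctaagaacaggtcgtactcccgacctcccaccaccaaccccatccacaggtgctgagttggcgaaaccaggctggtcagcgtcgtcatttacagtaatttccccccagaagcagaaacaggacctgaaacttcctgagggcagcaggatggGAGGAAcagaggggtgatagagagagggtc
Itgam: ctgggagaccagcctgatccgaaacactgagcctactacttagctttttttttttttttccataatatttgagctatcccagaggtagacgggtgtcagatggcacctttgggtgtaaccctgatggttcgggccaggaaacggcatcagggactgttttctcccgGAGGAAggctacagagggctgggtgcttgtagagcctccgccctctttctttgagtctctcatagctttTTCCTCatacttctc
Trem2: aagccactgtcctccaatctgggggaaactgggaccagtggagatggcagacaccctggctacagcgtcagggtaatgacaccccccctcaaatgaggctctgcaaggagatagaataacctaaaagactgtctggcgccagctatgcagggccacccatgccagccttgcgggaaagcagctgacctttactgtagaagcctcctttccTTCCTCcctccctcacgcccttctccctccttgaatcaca
The Aif1 stretch is chr17:35176053-35176302 (minus strand), with its match beginning 7 bases before the start and lying on the opposite strand. The C1qb stretch is chr4:136886201-136886450 (minus strand), with its match 30 bases before the start on the gene's strand. The Itgam stretch is chr7:128062390-128062639 (plus strand) and had 2 matches, beginning 84 and 15 bases before the start. The Trem2 stretch is chr17:48346151-48346400 (plus strand), with its match beginning 40 bases before the start on the opposite strand. The stretches of Cx3cr1 and P2ry12 held no match, which says only that these letters are not in that window. Spi1 itself was too dim on the arrays to be tested.

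Before the genotypes are compared, 1 probe has to be set apart. Itgam had 3 probes, and at the brightest of them, A_55_P1977934, the mean log2 intensity was 16.90, rank 204 among the 33300 tested probes, against 7.68 at A_55_P1977929 and 7.17 at A_55_P1977926. Its levels were 17.53, 16.35, 17.53 and 16.37 in mutant mice 1 to 4 and 17.48, 16.40, 16.95 and 16.55 in wild-type mice 1 to 4. The probe was thus brighter on arrays 1 and 3, where the other 8 genes were dimmer. Over the 8 mice the probe correlated with them at r = -0.78 to -0.99, while A_55_P1977929 correlated with the same 8 at r = 0.71 to 0.95 and A_55_P1977926 at r = 0.05 to 0.69. Whether the brightest probe reads Itgam was not tested, and values with the other probes are given beside it.

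The first question was whether these genes differed between mutant and wild-type brain. None of the 9 passed the test, and none did so at an unadjusted p under 0.05. By the brightest probe of each gene, 7 were lower and 2 higher on average in the mutant, with a median log2 ratio of -0.12. The median over all tested genes was 0.00696, and 51.8% of them were higher in the mutant. The test was limma on the log2 ratios of the 4 arrays with a term for dye, adjusted over all 33300 probes, of which 0.00901% passed at an adjusted p under 0.05 and 6.05% at an unadjusted p under 0.05 (3.04% higher and 3.01% lower). The 95% intervals of the mutant over wild-type difference, taken over the 9 genes, ran from -0.69 to 0.43 on the log2 scale, or from 0.619-fold to 1.35-fold. Mutant and wild-type levels overlapped at all 15 probes, where 1.02% of all probes did not overlap. No brightest probe had the same sign in all 4 pairs, against 11.8% of all probes.

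**Figure D1:**
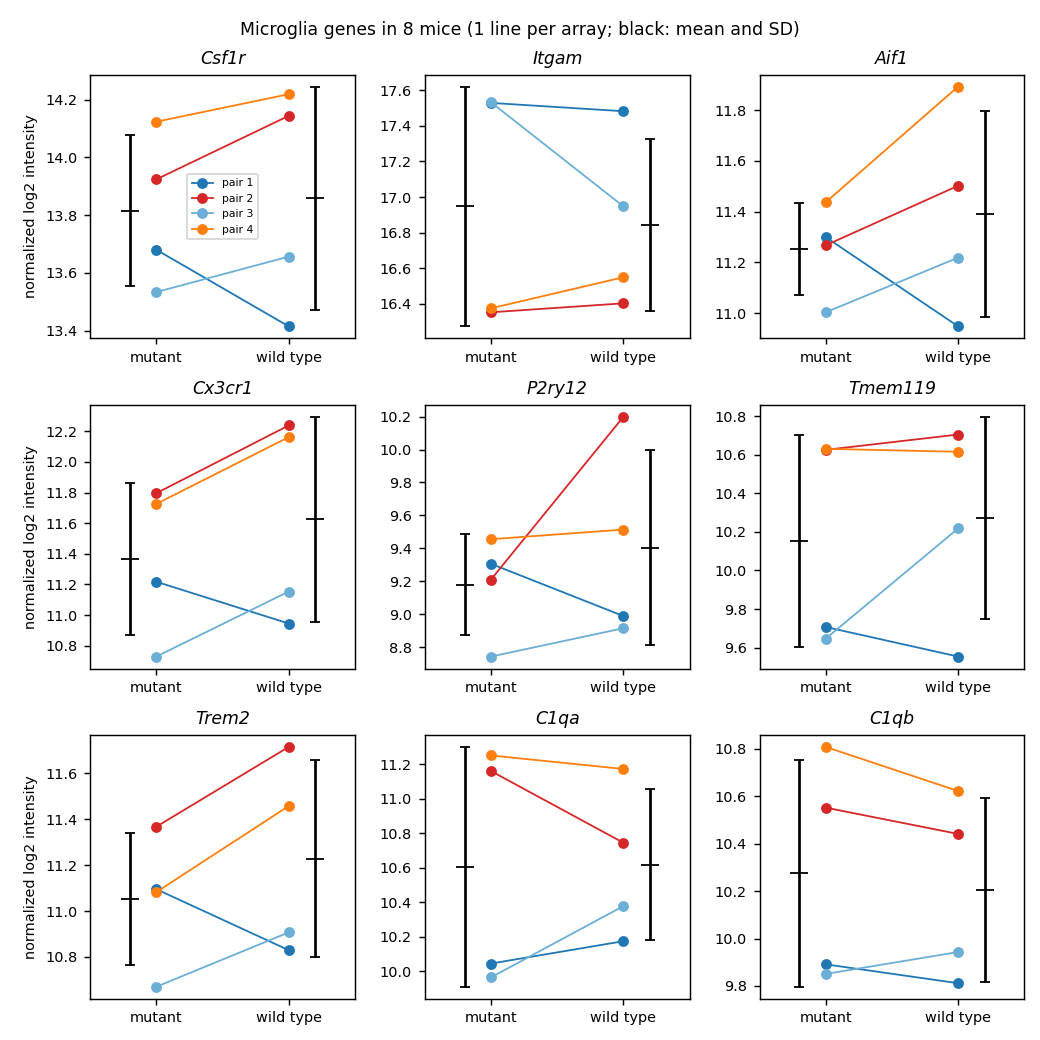
Normalized log2 intensity of the 9 microglia genes (brightest probe of each) in the 4 mutant mice (left) and the 4 wild-type mice (right). Lines join the 2 mice of 1 array, and black bars give the mean and SD of each genotype (n = 4). Mutant and wild-type values overlap in every panel, and pairs 2 and 4 lie above pairs 1 and 3 on average for every gene except Itgam, where they lie below.

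Cx3cr1, the fractalkine receptor, had at its brightest probe log2 levels of 11.22, 11.80, 10.73 and 11.73 in mutant mice 1 to 4, against 10.94, 12.24, 11.15 and 12.16 in wild-type mice 1 to 4. The mutant was higher in pair 1 and lower in the other 3. The log2 ratios were 0.27, -0.44, -0.42 and -0.44 in pairs 1 to 4, which averaged -0.26 ± 0.35 (SD, n = 4 pairs) with adjusted p = 0.839 in limma. That value moved with single pairs, to -0.432 without replicate 1 and -0.0832 without replicate 3. Its other probes ran the same way on average, at -0.32 ± 0.29 for A_55_P2054362 (adjusted p = 0.811 in limma) and -0.23 ± 0.21 for A_52_P99810 (adjusted p = 0.827 in limma). At A_52_P99810 the mutant was lower in all 4 pairs, with -0.12, -0.15, -0.55 and -0.09, where 5.75% of all probes were lower in all 4 pairs.

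P2ry12, the nucleotide receptor, had log2 levels of 9.31, 9.21, 8.74 and 9.46 in mutant mice 1 to 4, against 8.99, 10.20, 8.91 and 9.51 in wild-type mice 1 to 4. Wild-type mouse 2 stood above the other 7. The ratios were 0.32, -0.99, -0.17 and -0.06 in pairs 1 to 4, on average -0.23 ± 0.55, with adjusted p = 0.875 in limma, and without replicate 2 the value was 0.00693. Trem2, the lipid receptor, had 11.10, 11.37, 10.67 and 11.08 in mutant mice 1 to 4, against 10.83, 11.72, 10.91 and 11.46 in wild-type mice 1 to 4. As for Cx3cr1, the mutant was higher in pair 1 and lower in the others, with ratios of 0.27, -0.35, -0.24 and -0.38, on average -0.17 ± 0.30 (adjusted p = 0.866 in limma). It was -0.299 without replicate 1 and -0.0479 without replicate 3.

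Csf1r, the growth factor receptor on which microglia depend, had log2 levels of 13.68, 13.92, 13.53 and 14.12 in mutant mice 1 to 4, against 13.42, 14.14, 13.66 and 14.22 in wild-type mice 1 to 4. Its average ratio was -0.04 ± 0.21, with a 95% interval of -0.34 to 0.25 and adjusted p = 0.967 in limma. Its other probes gave 0.07 (A_52_P602091) and 0.03 (A_55_P2025073), so the sign differed between probes and none stood clear of 0. Itgam, the alpha chain of complement receptor 3, averaged 0.10 ± 0.33 at the bright probe set apart above, with 0.05, -0.05, 0.59 and -0.17 in pairs 1 to 4 (adjusted p = 0.920 in limma). At A_55_P1977929, the probe that followed the other genes, levels were 7.50, 7.63, 7.60 and 7.92 in mutant mice 1 to 4, against 7.38, 8.02, 7.44 and 7.98 in wild-type mice 1 to 4. The ratio there was -0.04 ± 0.25 (adjusted p = 0.965 in limma), and at A_55_P1977926 it was 0.00303 ± 0.28.

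The chains of C1q had the smallest or the least variable differences. C1qa had log2 levels of 10.04, 11.16, 9.96 and 11.25 in mutant mice 1 to 4, against 10.17, 10.75, 10.38 and 11.17 in wild-type mice 1 to 4. The average ratio was -0.01 ± 0.35, with a 95% interval of -0.32 to 0.29 and adjusted p = 0.992 in limma. C1qb had 9.89, 10.55, 9.85 and 10.81 in mutant mice 1 to 4, against 9.81, 10.44, 9.94 and 10.62 in wild-type mice 1 to 4. It averaged 0.07 ± 0.12, with an interval of -0.19 to 0.34 and adjusted p = 0.932 in limma. The 2 genes lie next to each other on chromosome 4 with 1 coding gene between them, C1qc, which encodes the remaining chain and had a ratio of -0.05 ± 0.16.

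The last 2 genes serve as cell markers. Aif1 (IBA1) had log2 levels of 11.30, 11.27, 11.00 and 11.44 in mutant mice 1 to 4, against 10.95, 11.50, 11.22 and 11.89 in wild-type mice 1 to 4. It averaged -0.14 ± 0.34, with 0.35 in pair 1 and -0.23, -0.22 and -0.46 in pairs 2 to 4 (adjusted p = 0.892 in limma). Tmem119 had 9.71, 10.63, 9.65 and 10.63 in mutant mice 1 to 4, against 9.55, 10.70, 10.22 and 10.62 in wild-type mice 1 to 4. It averaged -0.12 ± 0.32 (adjusted p = 0.917 in limma), and pair 3, at -0.57, was the pair farthest from 0. Tmem119 is on chromosome 5, as is Pus1, with 29 coding genes between them.

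**Figure D2:**
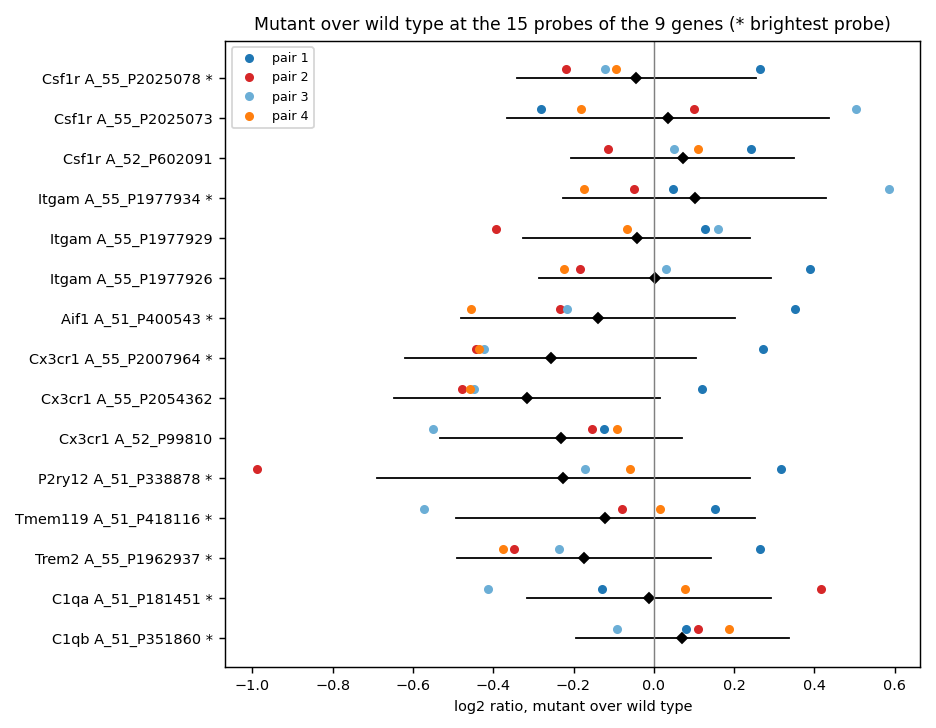
Log2 ratio of mutant over wild type at the 15 probes of the 9 microglia genes. Coloured points are the 4 pairs, black diamonds the fitted values with their 95% intervals from limma, and asterisks mark the brightest probe of a gene. All 15 intervals include 0, and pair 1 lies to the right of the other pairs at the brightest probes of Csf1r, Aif1, Cx3cr1, P2ry12, Tmem119 and Trem2.

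The pairs differed from each other more than the genotypes did. In pair 1 the mutant was higher for 8 of the 9 genes, with a median ratio of 0.27, where 54.1% of all tested genes were higher and their median was 0.02. In pair 2 the mutant was higher for 2 of the 9, with a median of -0.22 and a range from -0.99 (P2ry12) to 0.42 (C1qa). In pair 3 it was higher for 1 of 9, Itgam at the bright probe, with a median of -0.22, and in pair 4 for 3 of 9, with a median of -0.10. Of all tested genes 49.5%, 46.9% and 52.1% were higher in pairs 2, 3 and 4, with medians of -0.006, -0.03 and 0.01. Without replicate 1 the median over the 9 genes was -0.28, and without replicate 3 it was 0.00302. Pair 2 also had the widest ratios over all probes, with an SD of 0.633 against 0.279 to 0.395 in the other pairs. In that pair oligodendrocyte markers had a median ratio of 1.67 and neuron markers one of -0.67. The part of these shifts in the microglia values was not tested.

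The second question was whether the genotype difference depended on sex, since each sex held 2 pairs. Averaged over pairs, the ratio of Aif1 was 0.06 in females and -0.34 in males, that of Cx3cr1 -0.08 in females and -0.43 in males, and that of C1qa 0.14 in females and -0.17 in males. The ratio was higher in females for 7 of the 9 genes, with differences from -0.22 to 0.39. None passed in limma, where the smallest adjusted p was 0.993 and no gene of the 9 had an unadjusted p under 0.05. Over all probes 0% passed the adjusted test and 2.78% had an unadjusted p under 0.05. The levels of the genes, averaged over the 2 mice of an array, differed between females and males by -0.16 (C1qa) to 0.27 (P2ry12), with standard errors of 0.27 to 0.51. None passed in limma (smallest adjusted p = 1.00, with 0 of 9 at an unadjusted p under 0.05), and over all probes 0% passed the adjusted test and 0.523% had an unadjusted p under 0.05. With 2 arrays of each sex these comparisons are imprecise.

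What the 8 mice did show was that the genes moved together from array to array. Leaving out Itgam, whose bright probe ran the other way, the levels of the other 8 genes correlated with each other over the 8 mice at r = 0.62 to 0.98, with a median of 0.88 over 28 pairs of genes. Each probe's mean in its dye was first removed. The mice share 4 arrays, so these values are a description of the 8 samples. The mice fell apart by array. The mean level of Cx3cr1 was 11.98 on arrays 2 and 4 and 11.01 on arrays 1 and 3, a difference of 0.97. It was 0.79 between the mutant mice of these arrays and 1.15 between the wild-type mice. C1qa differed by 0.94, Tmem119 by 0.86, C1qb by 0.73, P2ry12 by 0.61, Csf1r by 0.53, Trem2 by 0.53 and Aif1 by 0.41, in each case higher on arrays 2 and 4 in both genotypes. The other Cx3cr1 probes gave 1.15 and 1.11.

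The division was not particular to microglia. Over all tested genes the difference had a median of 0.14, and 65.0% of genes were higher on arrays 2 and 4. The median of the 9 genes stood 0.47 above that of all genes. It stood 0.62 above it with each array centred on its median and 0.51 above it in the authors' value table. The median of all genes was 0.58 with median centring and 0.18 in the authors' table. Relative to all genes, lymphocyte markers lay at 0.53 (5 genes), above the 9 microglia genes. Without Itgam the other 8 microglia genes also lay at 0.53. A list of 30 other microglia genes lay at 0.40, microglial transcription factors at 0.37, the receptors' ligands and partners at 0.31, monocyte and neutrophil markers at 0.24 and blood and vessel genes at 0.19. Genes of activated microglia (-0.01), complement (-0.03), border macrophages (-0.06) and oligodendrocytes (-0.09) did not stand above all genes, nor did markers of neurons (-0.13) and astrocytes (-0.25). With median centring the neuron list turned to 0.08 and the oligodendrocyte list to 0.09, and the astrocyte list stood at -0.08. Lymphocyte markers then lay at 0.40, below the 9 genes at 0.62. Microglial transcription factors lay at 0.09, monocyte and neutrophil markers at 0.02 and border macrophages at -0.36. The other microglia genes stayed at 0.40, ligands and partners lay at 0.26 and blood and vessel genes at 0.31. Activated microglia lay at -0.06 and complement at -0.14. The probes did not all follow: the Csf1r probe A_55_P2025073 differed by -0.35 and the bright Itgam probe by -0.95. These array sets coincide with the dye given to the mutant, and both hold both genotypes and both sexes.

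**Figure D3:**
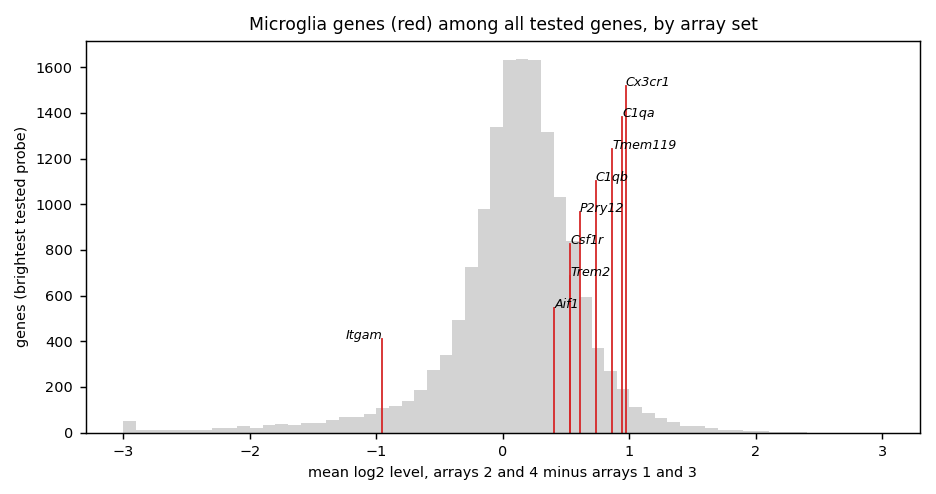
Difference in mean log2 level between arrays 2 and 4 and arrays 1 and 3, for the brightest tested probe of each of 15283 genes (grey bars, with values beyond 3 in either direction placed in the end bars) and for the 9 microglia genes (red lines, whose heights only separate the names). Of the 9, 8 lie between 0.41 and 0.97, to the right of the median of all genes at 0.14, and Itgam lies at -0.95.

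The genes whose levels over the 8 mice were most like the mean of the 9, by Pearson's r on levels with each dye's mean removed, were Sdcbp2 (r = 0.996), Ttll1 (0.994), Kif5a (0.992), Id3 (0.992) and Il24 (0.992). Without Itgam 4 of these 5 were again among the first 5. Such values were common on these arrays: 7.91% of all genes had r above 0.9 with the mean of the 8.

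Other genes of the same cell type and its pathways were read from further lists. Of 30 other microglia genes, 20 were lower and 10 higher in the mutant, where 51.8% of all tested genes were higher. Cd53, counted among the lower, met the brightness requirement only through the wild type. None of the 30 passed in limma (smallest adjusted p = 0.790, with 2 at an unadjusted p under 0.05). Over all probes 6.05% had an unadjusted p under 0.05, the share to set beside such counts here and below. Their median was -0.07, with 0.17 in pair 1 and -0.18, -0.17 and -0.16 in pairs 2 to 4. The brightest were Sparc, a matrix protein that other brain cells also make (0.74 ± 1.03, with 2.25 in pair 2), and the lectin Siglech (0.22 ± 0.81). The Siglech probe ranked 99 in brightness. Like the bright Itgam probe, it was higher in mutants 1 and 3, labelled with Cy5 (18.04 and 18.32), than in mutants 2 and 4, labelled with Cy3 (16.96 and 17.17). Its wild-type levels, 17.53, 17.34, 17.08 and 17.66 in mice 1 to 4, were not split that way. The Siglech ratios, 0.51, -0.38, 1.23 and -0.50 in pairs 1 to 4, changed sign with the dye. On each array the mouse labelled with Cy5 had the higher level. Whether it reads Siglech was not tested. The lowest ratio of the list was that of the phagocytic receptor Mertk (-0.48 ± 0.66). Of the microglial transcription factors 10 of 13 were tested, and their median was 0.05. None passed in limma (smallest adjusted p = 0.811, with 1 at an unadjusted p under 0.05). The lowest was Mef2c, which neurons also express, with -0.81 ± 1.47 and -2.88 in pair 2, and the highest Sall3 (0.38 ± 0.36). The brightest were Mef2a (0.10 ± 0.56) and Irf8 (-0.14 ± 0.21).

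The ligands and partners of the receptors had a median of -0.06 over 14 genes, and none passed in limma (smallest adjusted p = 0.811, with 1 at an unadjusted p under 0.05). Fractalkine (Cx3cl1), the neuronal ligand of CX3CR1, was the lowest of them, with 0.25, -2.00, -0.65 and -0.48 in pairs 1 to 4, on average -0.72 ± 0.94. The CSF1R ligands, named after their values were seen, had -0.56 ± 0.63 (Il34) and 0.09 ± 0.59 (Csf1). Tyrobp, the adaptor of TREM2 and also named after its value was seen, had -0.08 ± 0.21. The brightest genes of the list were the apolipoproteins Apoe (-0.03 ± 0.17) and Clu (-0.07 ± 0.11), which astrocytes also make, and the highest the phospholipase Plcg2 (0.10 ± 0.53). The complement list had a median of 0.08 over 12 genes. C4b (0.34 ± 1.04) and Cd59a (0.54 ± 1.33) were widest in pair 2, with 1.78 and 2.49 there, and C1ra was the lowest (-0.58 ± 0.88). The smallest adjusted p of that list in limma was 0.811, with 1 gene at an unadjusted p under 0.05. The share over all probes at that threshold, 6.05%, stands beside this count and that of the ligands and partners.

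Genes that rise in activated or disease-associated microglia had a median of 0.11 over the 22 of 30 that were tested. Of these, 15 were higher and 7 lower, where 51.8% of all tested genes were higher. None passed in limma (smallest adjusted p = 0.720, with 1 at an unadjusted p under 0.05, against 6.05% of all probes). That gene, the lysozyme Lyz2, met the brightness requirement only through the mutant, and Gpnmb met it only through the wild type. Over these genes pair 2 had a median of 0.39, and pairs 1, 3 and 4 had 0.01, 0.03 and -0.01. The highest was Spp1 (osteopontin), at 0.49 ± 1.44, with 2.63 in pair 2 and -0.50, -0.08 and -0.11 in pairs 1, 3 and 4. The lowest was Gpnmb (-0.22 ± 0.29), and the brightest were Apoe and the protease Ctsb (0.08 ± 0.09). Clec7a, Itgax, Ccl3, Ccl4, Cd68, Cybb, Il1b and Tnf were not tested. Border macrophages, which line the vessels and meninges, had a median of 0.01 over 8 genes. Stab1 was at -0.26 ± 0.40, Pf4 at -0.08 ± 0.14 and Clec10a at 0.52 ± 1.34. None passed in limma (smallest adjusted p = 0.766, with 1, Clec10a, at an unadjusted p under 0.05, against 6.05% of all probes). The ratios of Clec10a were 1.77, -0.92, 1.54 and -0.32 in pairs 1 to 4. They were above 0 where the mutant was labelled with Cy5 and below 0 where it was labelled with Cy3.

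Markers of monocytes and neutrophils, the myeloid cells of the blood, were read from a list of 12 genes, of which 8 were tested and none passed in limma. Of these 8, Ccr2, Plac8, Ngp, Ltf and Retnlg met the brightness requirement only through the mutant samples, so no count or median of the list is read. The other 3, S100a9, S100a8 and Camp, were well above background in all 8 mice and each had an unadjusted p under 0.05, where 3.04% of all probes were higher at that threshold. S100a9, a calcium-binding protein abundant in neutrophils, had log2 levels of 12.14, 12.11, 12.31 and 12.85 in mutant mice 1 to 4, against 9.53, 9.97, 11.42 and 11.86 in wild-type mice 1 to 4. Every mutant value lay above every wild-type value, and the ratio averaged 1.66 ± 0.85 (adjusted p = 0.618 in limma). Its partner S100a8 had 10.13, 10.21, 10.12 and 10.83 in mutant mice 1 to 4, against 7.76, 8.43, 9.48 and 9.66 in wild-type mice 1 to 4, again without overlap, and averaged 1.49 ± 0.75 (adjusted p = 0.618 in limma). The antimicrobial peptide Camp, named after its values were seen, averaged 0.88 ± 0.33 (adjusted p = 0.572 in limma) with 1.24, 1.08, 0.54 and 0.67 in pairs 1 to 4. Camp too had every mutant value above every wild-type value, where 1.02% of all probes had levels that did not overlap. The haemoglobin genes had ratios of -0.15 ± 0.36 (Hba-a2) and -0.16 ± 0.45 (Hba-a1). Itgam, which neutrophils and monocytes also carry, had the values given above, with the doubt about its bright probe. Whether blood left in the tissue had a part in the values of S100a9, S100a8 and Camp was not tested. The difference between this list and the microglia genes was not tested. Lymphocyte markers were mostly too dim, with 5 of 14 tested and a median of 0.14, blood and vessel genes had a median of -0.05 over 14, and astrocyte, oligodendrocyte and neuron markers had 0.25, 0.10 and -0.15. These medians rested on single pairs: the oligodendrocyte median was -0.388 without replicate 2 and 0.636 without replicate 4, the neuron median 0.0359 and the astrocyte median 0.0782 without replicate 2, the blood and vessel median 0.0454 without replicate 4 and the lymphocyte median -0.0403 without replicate 1. The same held for the other lists, at 0.0142 for other microglia genes and 0.00665 for ligands and partners without replicate 3, and at -0.101 for transcription factors, -0.00201 for complement and 0.0136 for activated microglia without replicate 2. Border macrophages had -0.00474 without replicate 3. Among lymphocyte, vessel, astrocyte, oligodendrocyte and neuron genes none passed in limma, where the smallest adjusted p over them was 0.810. An unadjusted p under 0.05 in limma was seen for 2 astrocyte genes, 1 neuron gene and none of the others, against 6.05% of all probes.

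**Figure D4:**
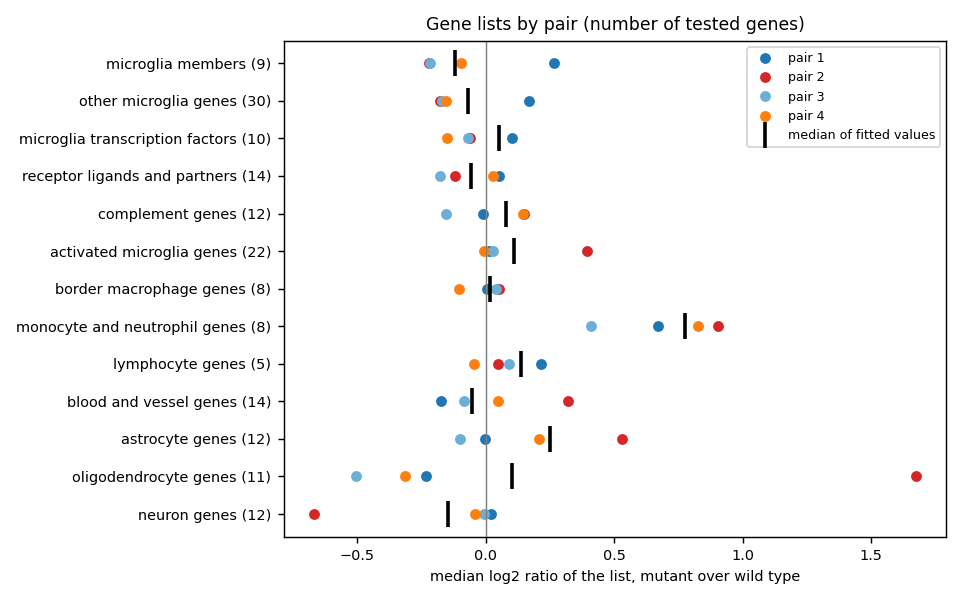
Median log2 ratio of mutant over wild type for the 9 microglia genes and 12 other gene lists, in each of the 4 pairs (coloured points) and over the fitted values (black bars), with the number of tested genes in brackets. The microglia genes lay at 0.27 in pair 1 and between -0.22 and -0.10 in pairs 2 to 4. Of the 8 monocyte and neutrophil genes, 5 met the brightness requirement only through the mutant, so the place of that list is not read.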

How the data were processed

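The scanner files come from Agilent Feature Extraction, version 10.7.3.1 per the submitters' processing notes. The deposited intensity values used were each spot's median and that of the background around it, neither corrected, per the file headers. Processed intensity, background-subtracted and dye-normalized by that software, served as an alternative. Spot marks (other values, 0 or 1) gave well above background, saturated or outlier, per the file headers.

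For this report, background was corrected by normexp with an offset of 50, which pulls dim spots' ratios toward 0, and log2 ratios normalized by loess within arrays, with controls at weight 0. Outlier spots were left out and spots of a probe averaged. Single-mouse levels, called log2 levels, followed Aquantile normalization, and levels of different probes are not comparable as amounts of RNA. Of 55681 probes, 33308 were well above background in at least 3 of 4 samples of a genotype and 33300 of these had values on all arrays. A RefSeq table (GRCm38.p6) named 27509 probes by accession. The headers name an older build, so the table gave names, chromosomes and gene order only. The brightest tested probe stands for its gene.

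limma 3.58.1 (R 4.3.3) fitted genotype and dye to the ratios, with 2 residual and 3.65 prior degrees of freedom and Benjamini-Hochberg adjustment over all tested probes, and was tested on simulated data. Genotype by sex was fitted to the ratios, and sex to array means. The fitted ratio equals the mean of the 4 pairs. SDs are over pairs and include any dye shift, which the fit takes out of its p-values and intervals. Per sample, 56.3% to 67.7% of probes were marked well above background, and 14 of the 15 microglia probes did so in all 8 samples. None was saturated. The number of arrays limits the precision.

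Mice of the same number shared an array and so a block. Their deviations correlated at r = 0.791, 0.314, 0.493 and 0.740 in pairs 1 to 4, and their highest correlation with a mouse of another number was 0.387, 0.691, 0.387 and 0.691, so those of pair 2 were not most alike. Both channels of an array share every spot. The labels number the mice as individuals.

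The authors' deposited table of log2 values matched the quantile-normalized log2 processed signal minus each probe's median (r at least 0.999998 over 28016 bright probes), which settles scale, centring and direction for those. Its column medians were -0.0271, 0.0199, -0.0142 and -0.00238 in mutants 1 to 4 and -0.0496, 0.0364, -0.00529 and 0.0345 in wild types 1 to 4.

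The microglia genes and the other lists were chosen with earlier results of these data known. Named genes were all 9 at every probe, and per list the 2 brightest, the highest, the lowest and any past the test, plus Pus1 and the 5 most alike in level.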

Additional observations from a re-analysis of the deposited data

Results flagged for a closer look

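In 3 of 45 groups of 4 values, formed by the mutant levels, wild-type levels and ratios at the 15 probes, 1 value lay far from the other 3 by Dixon's test, and chance alone gives about 1 in 20. All 3 concern Cx3cr1. At A_55_P2007964 the log2 ratio of pair 1 was 0.273, with the other pairs between -0.44 and -0.42. At A_55_P2054362 it was 0.121, with the others between -0.48 and -0.45. At A_52_P99810 it was pair 3 that stood apart, at -0.55, with the others between -0.15 and -0.09, so the probes of this gene did not single out the same pair.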

How the results depend on the processing

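None of the 9 genes passed under any of the alternatives, with adjusted p in limma between 0.182 and 1.00, and their median stayed below 0 except without replicate 3. The median was -0.28 to 0.00302 over the fits that left out 1 pair. At an unadjusted p under 0.05 there was 1 of the 9 without replicate 1 (5.33% of all probes), 1 without replicate 4 (18.0% of all probes), and 0 in the other alternatives (1.24% to 9.12% of all probes). Of 127 values of single genes 117 kept their direction, and the others lay close to 0. With median centring Itgam was -0.00739, and from its other probes, an alternative chosen after seeing the data, -0.0197. As a mean over all its probes Csf1r was 0.0211. Without replicate 2 P2ry12 was 0.00693. Without replicate 3 Csf1r was 0.0538, Itgam -0.0327, Aif1 0.00302, Tmem119 0.0606 and C1qa 0.0588, and without replicate 4 C1qa was 0.0723. The opposite ends over fits without 1 pair were -0.14 for Csf1r, 0.237 for Itgam, -0.28 for Aif1, -0.458 for P2ry12, -0.302 for Tmem119 and -0.0967 for C1qa, while Cx3cr1 ran from -0.432 to -0.0832, Trem2 from -0.299 to -0.0479 and C1qb from 0.028 to 0.114. The count over all probes, 3, was 0 with ratios of processed signals, 0 with the deposited value table, 0 with a term for sex and 0 to 934 without 1 pair (0 without replicate 1 or 3, 13 without replicate 2, 934 without replicate 4). It was 1 with no replicate block and 10 with the array as a random replicate block. None of the 9 passed with or without the block, and their median was -0.121 in each. The cause of these changes was not tested. The median of the monocyte and neutrophil list is not read, because 5 of its genes were admitted through the mutant. Those 5 are held in its values of 0.773 in the main fit, 1.30 with ratios of processed signals and 1.32 with the deposited value table. They are not held in the value of 1.49 over genes well above background in all 8 samples. Those genes were only S100a9, S100a8 and Camp, so 1.49 is the ratio of S100a8 given above and is not read for the list. With 1 slide there was no slide effect to fit.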
